A study of Mus musculus with 21 samples.

Results

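The genes described are 10 histone variants and histone chaperones, *H1foo*, *H1f0*, *H2afz*, *H2afx*, *H2afy*, *H3f3a*, *H3f3b*, *Hira*, *Npm2* and *Asf1a*, out of 10917 genes with a transcript in the merged long-read annotation. They were chosen by name. Merged transcripts were assigned to them by same-strand exon overlap with GENCODE vM21 on mm10, and 26 of the 22612 merged transcripts belonged to the 10 genes. The study collected mouse sperm, MII oocytes and preimplantation embryos. It sequenced amplified cDNA of each stage with short reads, in 2 libraries per stage, and with long reads, in 1 pool per stage. The paper states that each long-read pool mixed the cDNA of both batches of its stage. Part of the same cDNA went to the short reads, so the 2 kinds of reads are not independent. Sperm (DBA/2J in the titles, DBA/2N in the protocol) came from the epididymis. Oocytes came from superovulated C57BL/6J females aged 3 to 5 weeks and were lysed at 20 h after hCG. Embryos came from the same females mated with these males and were cultured in KSOM to the 1-cell (24 to 26 h), 2-cell (46 to 48 h), 4-cell (54 to 58 h), 8-cell (68 to 70 h) and blastocyst stage (94 to 96 h). The labels name no mutation and no compound, and each library was a pool of many cells or embryos. The study states that 2 batches were collected at each stage. The p-values measure the spread between the 2 pools of a stage, estimated jointly over all stages in a fit. This spread may be technical in part.

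Nucleosomes carry replication-coupled histones and variants that are placed outside S phase by dedicated chaperones. H3.3, encoded by *H3f3a* and *H3f3b*, is deposited by the HIRA complex, to which ASF1A hands over H3-H4. NPM2 binds histones stored in the egg and takes part in remodelling of sperm chromatin. H1FOO is the linker histone of the oocyte, and H2A.Z (*H2afz*), H2A.X (*H2afx*) and macroH2A (*H2afy*) replace H2A in particular nucleosomes.

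Levels are given as TPM (transcript abundance per library, estimated by the authors), which are scaled by transcript length and by the total of the library. A TPM is therefore a share of the amplified cDNA of a pool that was assigned to the annotated long-read transcripts. It follows the messages only as far as the cDNA captured them. More messages per cell, and more cells of one type, cannot be told apart with it. The files give no number of reads behind a TPM, so its counting error is unknown. Sperm and blastocysts carried their defining markers. Summed TPM of 6 sperm markers was 17315 to 21185 in sperm and at most 17.1 elsewhere, and that of 6 blastocyst markers was at least 10556 in blastocysts and at most 628 elsewhere. The 2-cell replicates stood apart from each other. Their gene levels correlated at r = 0.679 (Pearson, across genes, which are not independent replicates), against 0.979 for the 4-cell replicates. Summed TPM of 6 oocyte markers was 107 in 2-cell replicate 1 and 1255 in replicate 2, and that of 6 markers of 2-cell genome activation was 25.8 and 403. The 25.8 of replicate 1 is below the 36.2 to 41.9 of the 4-cell libraries, so that it did not stand above later embryos in this sum. Of the single markers, *Zscan4d* (4.65 TPM) and *Usp17lc* (5.96) in 2-cell replicate 1 were above all later libraries. *Zscan4c*, *Tcstv3*, *Tdpoz4* and *Zfp352* were not, with *Tdpoz4* at 3.23 TPM against 17.8 and 19.8 in 4-cell embryos. Sperm also carried 6 blood cell markers at 6648 to 12280 summed TPM and 4 of 6 epididymal markers at 373 to 2161. Most of the blood cell sum was *Lyz2*, *Cd52* and *Hba-a1*, while *Ptprc* was at 35.2 and 7.07 TPM. *Hba-a1* was not limited to sperm, with 368 TPM in 2-cell replicate 2. Of 8 cumulus cell markers, 7 had no merged transcript, and the eighth, *Nr5a2*, was at most 3.18 TPM in oocytes.

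The sequences that separate the *H2afy* forms described below are shown first. *H2afy* has alternative exons of the macro domain, of 100 bases in H2afy-201 (chr13:56089758-56089857 on mm10, − strand) and of 91 bases in H2afy-202 (chr13:56088252-56088342). They are known as the macroH2A1.2 and macroH2A1.1 forms, of which the latter binds ADP-ribose. Both exons are given 5′ to 3′ on the strand of the gene.
H2afy-201 exon: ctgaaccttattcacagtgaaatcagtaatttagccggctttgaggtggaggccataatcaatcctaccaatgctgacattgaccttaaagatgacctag
H2afy-202 exon: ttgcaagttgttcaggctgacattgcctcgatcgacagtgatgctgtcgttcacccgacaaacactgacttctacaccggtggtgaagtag
A second difference in *H2afy* was the presence or absence of 3 bases at an exon junction (chr13:56096232-56096234), marked in capitals in the spliced sequence of H2afy-201.
H2afy-201 junction: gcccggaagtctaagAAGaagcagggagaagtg

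Promoter windows of 300 bases (250 before and 50 after the start, RefSeq on GRCm38.p6, the assembly of mm10) matched 8 of the 10 genes, leaving *Npm2* and *H2afx*. Windows of 3 genes with high levels at different stages are printed. They hold more CCAAT matches than any other matched window, so they do not stand for the rest. Capitals mark CCAAT on the strand of the gene or its complement ATTGG. The windows lie at chr6:115944681-115944980 (+ strand), chr3:137864237-137864536 (+ strand) and chr11:116024455-116024754 (− strand).
H1foo promoter: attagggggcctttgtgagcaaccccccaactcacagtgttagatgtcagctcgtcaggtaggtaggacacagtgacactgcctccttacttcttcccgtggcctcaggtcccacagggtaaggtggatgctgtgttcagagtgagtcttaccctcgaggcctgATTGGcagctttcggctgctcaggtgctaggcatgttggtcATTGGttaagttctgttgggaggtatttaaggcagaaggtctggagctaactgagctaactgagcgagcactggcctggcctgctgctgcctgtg
H2afz promoter: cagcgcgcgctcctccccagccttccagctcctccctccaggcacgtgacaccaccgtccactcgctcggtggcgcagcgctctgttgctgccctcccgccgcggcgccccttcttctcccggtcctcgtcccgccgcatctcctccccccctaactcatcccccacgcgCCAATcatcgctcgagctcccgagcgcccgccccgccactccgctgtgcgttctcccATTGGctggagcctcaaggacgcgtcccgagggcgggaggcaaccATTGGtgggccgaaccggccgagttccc
H3f3b promoter: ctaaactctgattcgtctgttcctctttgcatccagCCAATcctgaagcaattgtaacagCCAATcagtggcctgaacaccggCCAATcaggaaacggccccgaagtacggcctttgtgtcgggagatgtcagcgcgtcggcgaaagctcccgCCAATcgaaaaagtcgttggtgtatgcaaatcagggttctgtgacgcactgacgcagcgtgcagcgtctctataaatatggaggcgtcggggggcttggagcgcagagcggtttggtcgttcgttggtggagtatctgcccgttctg
CCAAT was found in 5 of the 8 windows and in 37.4% of all 32851 windows, *H3f3b* holding 4 matches, *H2afz* 3 and *H1foo* 2. TATAAA (both strands) was found in *H3f3b* only among the 8, and in 13.6% of all windows. GGGCGG (both strands) was found in 6 of the 8 and in 35.7% of all windows. No CCAAT match overlapped a match to the other motifs. All 12 long-read transcripts of *H1foo* began from 12 bases before to 7 bases after the RefSeq start. For *H3f3b*, 42 of 43 began inside the window, with a median of 1 base after the start. *H2afz* transcripts began at a median of 102 bases after the start, past the window, except for the single 4-cell transcript, which began 205 bases before it.

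*H1foo*, the linker histone of the oocyte (chr6:115944938-115950236), had the widest range of the 10 genes. Its TPM was 12322 and 12737 in the oocyte libraries, 3542 and 1401 in 1-cell embryos, 5.87 and 111 in 2-cell embryos and 7.85 and 10.8 in 4-cell embryos. It was 2.50 and 1.40 in 8-cell embryos, 8.46 and 0.178 in blastocysts and 1.95 and 1.20 in sperm. The oocyte and 1-cell libraries lay above every other library and did not overlap each other. Between oocyte and 1-cell libraries 37.6% of all genes tested showed no overlap, and between 1-cell and 2-cell libraries 58% showed none. Below the 2-cell stage, each stage in the order of mean levels overlapped the one above it. Between the 1-cell and the 2-cell stage *H1foo* fell by 6.33 on the log2(TPM + 1) scale (SE 1.16, adjusted p = 0.00121, limma with Benjamini-Hochberg adjustment over all 10000 genes tested). The change of −2.49 from oocyte to 1-cell did not pass (SE 1.16, adjusted p = 0.543). The fall held with each library left out, at −8.34 to −4.32. The level of 111 TPM came from 2-cell replicate 2, the library with the higher oocyte markers, whose part in the value was not tested.

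The long-read pools held 6 *H1foo* transcripts in oocytes, 5 in 1-cell embryos, 1 in 2-cell embryos and 0 in sperm and later embryos. These pools came from the cDNA of the short-read libraries and differed in depth, so such counts are not an independent check.

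*H1f0*, a linker histone of differentiated and non-dividing cells (chr15:79028450-79030504), showed no change that passed in any comparison with all libraries kept. Without blastocyst replicate 2 its change from oocyte to blastocyst was −3.04 (adjusted p = 0.0186). It was at 77.7 and 135 TPM in sperm, 191 and 248 in oocytes, 168 and 483 in 1-cell embryos and 193 and 75.1 in 2-cell embryos. Levels of 46.3 and 28.4 in 4-cell embryos and of 52.6 and 58.7 in 8-cell embryos lay below all of these. The blastocyst replicates were at 25.7 and 310 TPM, so that they enclosed all values of the 4-cell and 8-cell stage. Of the summed TPM of *H1foo* and *H1f0*, *H1foo* was 98.5% and 98.1% in oocytes, 95.5% and 74.3% in 1-cell embryos, 2.95% and 59.6% in 2-cell embryos and 14.5% and 27.5% in 4-cell embryos. It was 4.53% and 2.34% in 8-cell embryos, 24.8% and 0.057% in blastocysts and 2.45% and 0.874% in sperm, so that the shares after the 1-cell stage followed no steady order.

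From 1-cell to 2-cell 4 of the 10 genes passed the test (adjusted p under 0.05), where 32.3% of all genes tested did. *H1foo* and *H3f3b* fell, and *H2afz* and *Hira* rose. At the oocyte to 1-cell step 0 of the 10 passed, against 0.38% of all genes, while 2 (*H1foo* and *Npm2*) had an unadjusted p under 0.05. At the 2-cell to 4-cell step 0 of the 10 passed, against 3.4% of all genes, and 0 had an unadjusted p under 0.05. At the 4-cell to 8-cell step 1 of the 10 passed, against 1.67% of all genes. At the blastocyst step 0 of the 10 passed, against 3% of all genes, while *H2afy* and *H3f3a* had an unadjusted p under 0.05. Over all genes the median log2 change was 0.72 at the 1-cell to 2-cell step and −0.34 at the 4-cell to 8-cell step. The corresponding medians of the 10 genes were −0.53 and 0.30. Of all genes called from 1-cell to 2-cell, 80.8% were higher, and 47.5% were after quantile normalization, under which the 4 directions given here were the same and the call of *H3f3b* was lost. All 10 genes passed the filter on low values, *Hira* only through the stages from 2-cell on.

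**Figure D1:**
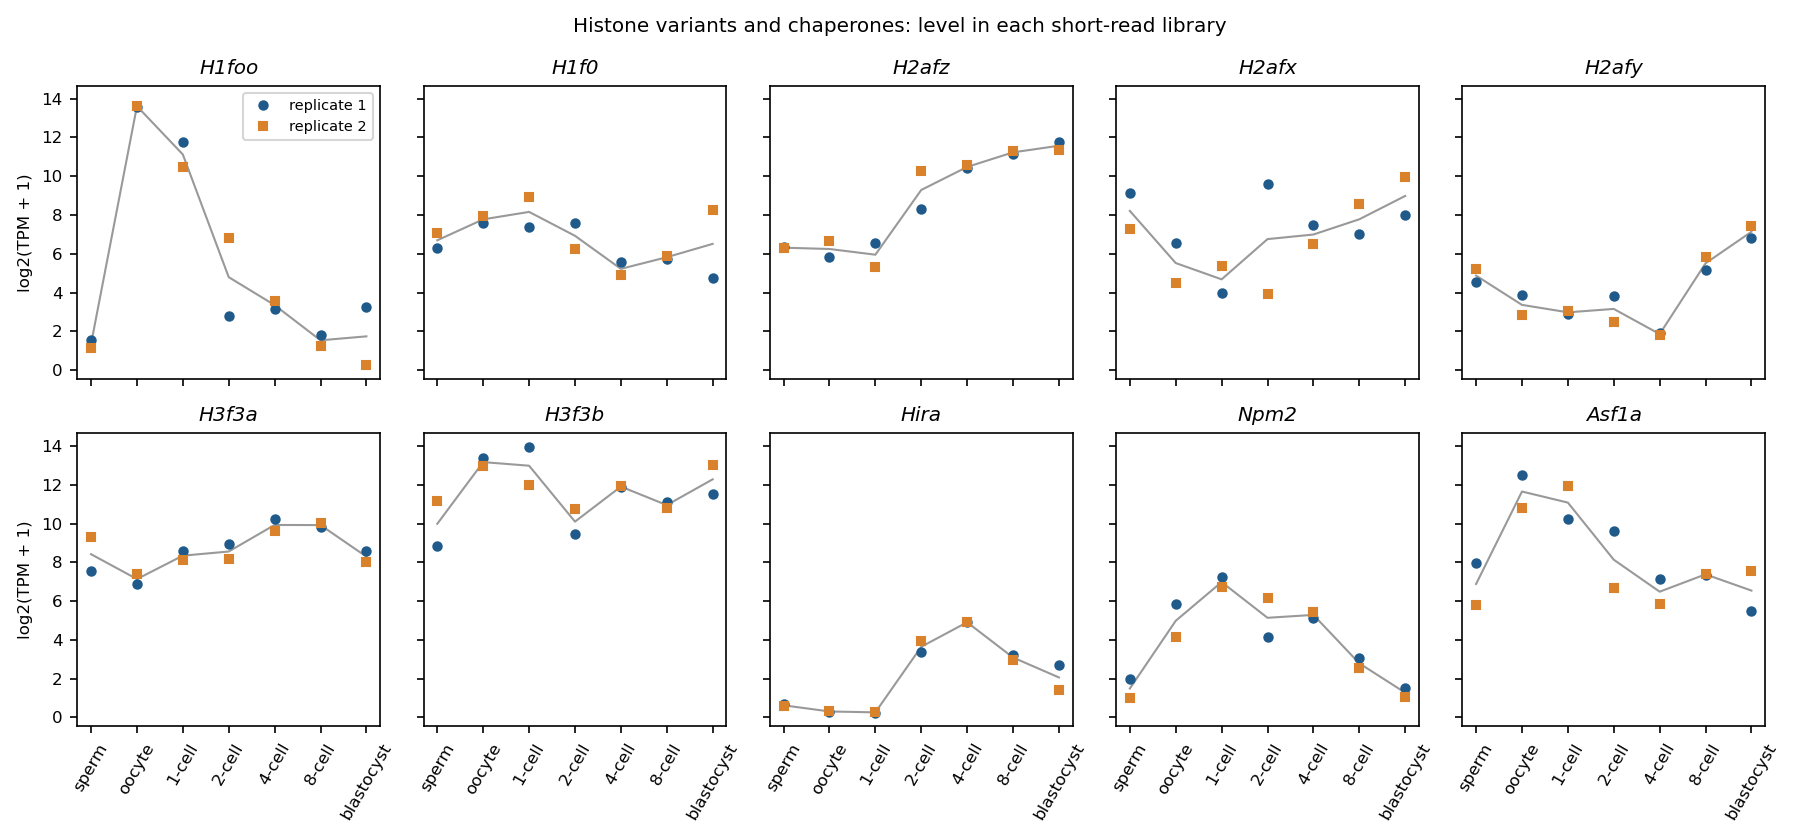
Level of each of the 10 genes, as log2(TPM + 1), in the 14 short-read libraries; circles and squares are the replicates of a stage and the line joins the stage means. *H1foo* is above 13 on this scale in both oocyte libraries and below 4 in 7 of the 8 libraries from the 2-cell to the blastocyst stage, while *H2afz* climbs from the 2-cell stage on.

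**Figure D2:**
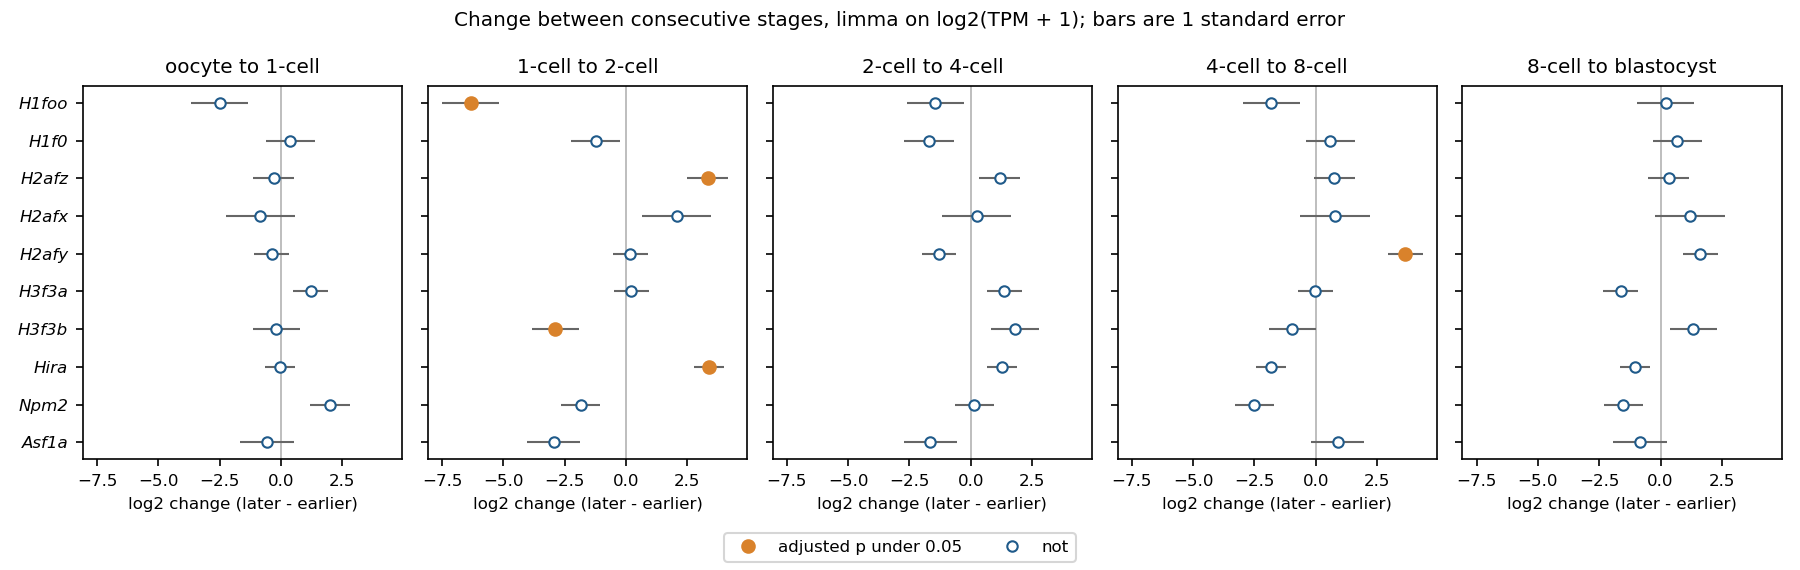
Log2 change of each gene between consecutive stages (later minus earlier, limma on log2(TPM + 1), bars 1 standard error); filled points have an adjusted p under 0.05. Filled points stand at the 1-cell to 2-cell step for *H1foo*, *H2afz*, *H3f3b* and *Hira* and at the 4-cell to 8-cell step for *H2afy*.

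*H2afz* encodes H2A.Z, a variant found at promoters (chr3:137864487-137866922). It was at 79.6 and 77.5 TPM in sperm, 56.6 and 98.9 in oocytes and 94.1 and 39.3 in 1-cell embryos, ranges that overlapped. It then stood at 314 and 1243 TPM in 2-cell embryos, 1349 and 1505 in 4-cell embryos, 2271 and 2544 in 8-cell embryos and 3485 and 2655 in blastocysts. From the 2-cell stage on no stage overlapped the next. At these steps 52.8%, 70.3% and 47.8% of all genes tested showed no overlap either. *H2afz* was the highest of the 10 genes in both 8-cell libraries. It rose by 3.34 from 1-cell to 2-cell (SE 0.84, adjusted p = 0.00795). The call was lost without 1-cell replicate 2 (2.72, adjusted p = 0.0812) and with the spread weighted by stage (adjusted p = 0.056). The later steps, of 1.19, 0.75 and 0.34, did not pass. From oocyte to blastocyst it rose by 5.33 (SE 0.84, adjusted p = 0.000145).

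Reads of *H2afz* can fall on an intronless copy. The annotated processed pseudogene *Gm8203* (chr6:116173737-116174123) is identical to the *H2afz* mRNA over 387 bases and has a merged transcript of its own. It was at 310 and 412 TPM in 2-cell embryos, 1985 and 477 in 4-cell embryos, 1107 and 773 in 8-cell embryos and 3964 and 885 in blastocysts. It took from 23.3% to 59.5% of the summed TPM of both from the 2-cell stage on. The shares were 49.6% and 24.9% in the 2-cell replicates, 59.5% and 24.1% in the 4-cell replicates and 53.2% and 25.0% in the blastocyst replicates, so that replicates differed widely. How the reads were shared between both loci was not tested. With the copy added to *H2afz*, the rise from 1-cell to 2-cell was 3.41 (adjusted p = 0.00952) and that from oocyte to blastocyst 5.52 (adjusted p = 0.000166).

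**Figure D3:**
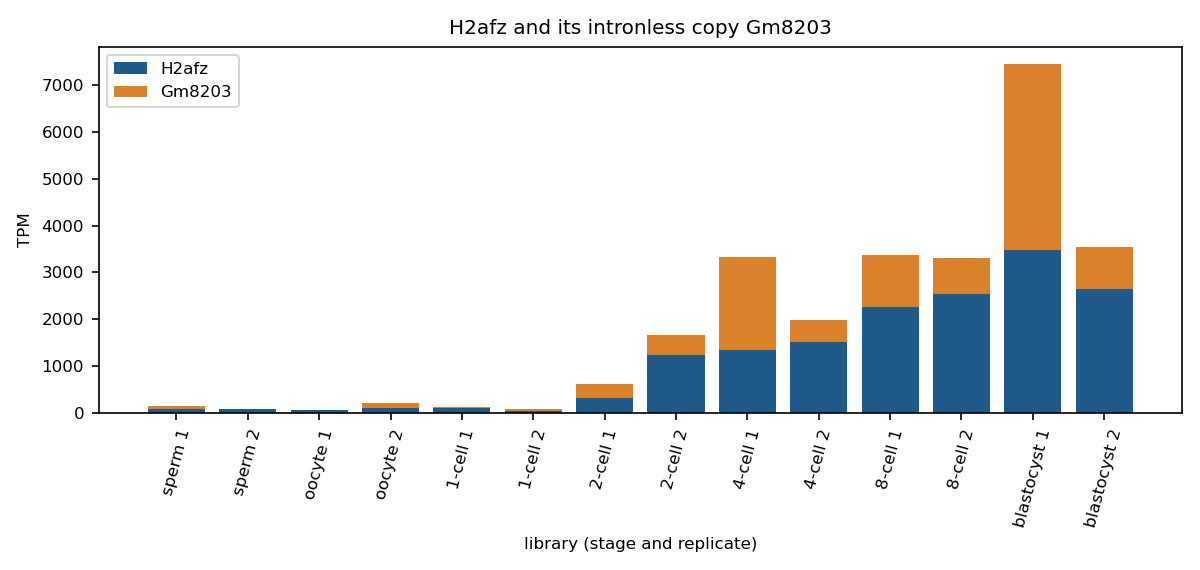
TPM of *H2afz* (blue) and of its copy *Gm8203* (orange, stacked on top) in each short-read library. *H2afz* itself was within 1349 and 1505 TPM in 4-cell embryos, where the copy was at 1985 and 477.

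*H2afx* encodes H2A.X, which is phosphorylated around DNA breaks (chr9:44334694-44336077, a single exon). It had the largest SE of the 10 genes on the log2 scale (1.42), with 772 and 14.1 TPM in 2-cell embryos. It was at 567 and 154 TPM in sperm, 93.2 and 21.4 in oocytes, 14.9 and 40.4 in 1-cell embryos, 178 and 89.7 in 4-cell embryos, 127 and 376 in 8-cell embryos and 256 and 994 in blastocysts. Neighbouring stages overlapped throughout the order of levels. No step passed, and the change of 3.46 from oocyte to blastocyst had an adjusted p of 0.0522 (SE 1.42), or of 0.0041 and 0.0044 without 2-cell replicate 1 and 2. From 1-cell to 2-cell the change was 2.07 (adjusted p = 0.283), and 4.91 (adjusted p = 0.00358) without 2-cell replicate 2, so that 1 library decided this value. The difference of −2.69 from sperm to oocyte passed without either 2-cell replicate (adjusted p = 0.03 and 0.0307). The mRNA is at least 90% identical over 150 bases or more to 20 other annotated genes, of which 5 have a merged transcript. In all 5, which are H2A genes, 2-cell replicate 1 was also above replicate 2 and blastocyst replicate 1 below replicate 2. *H2afj* was at 1584 against 147 TPM in the 2-cell replicates and at 288 against 1287 in the blastocyst replicates. *Hist1h2ao* was at 11864 against 1019 TPM and at 6214 against 27741, and *Hist1h2ab*, *Hist1h2ae* and *Hist2h2aa2* were at 21.2, 25.2 and 114 TPM in 2-cell replicate 1 against 1.35, 4.62 and 15.2 in replicate 2. The part of shared reads or of the library in the *H2afx* values was not tested. Neither was that of messages without poly(A), for which the paper names limits of its long-read strategy.

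*H2afy* encodes macroH2A1, a variant with a large macro domain found on silent chromatin (chr13:56073619-56136361). It was low through the early stages and climbed in the last 2. It stood at 22.0 and 36.3 TPM in sperm, 13.6 and 6.24 in oocytes, 6.42 and 7.37 in 1-cell embryos, 13.3 and 4.54 in 2-cell embryos and 2.76 and 2.48 in 4-cell embryos. It was then 35.0 and 56.4 in 8-cell embryos and 113 and 173 in blastocysts. The 4-cell libraries were the lowest of all 14, and the blastocyst libraries the highest. *H2afy* was the 1 gene that passed from 4-cell to 8-cell, with a rise of 3.65 (SE 0.71, adjusted p = 0.0199). From oocyte to blastocyst it rose by 3.77 (SE 0.71, adjusted p = 0.000556). The 4-cell to 8-cell change was 3.32 to 3.99 with 1 of the 4 libraries left out. It passed in none of these fits, and neither did any other gene tested, so they cannot tell *H2afy* from other genes.

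Of the 4 merged *H2afy* transcripts, 3 held the 100-base exon shown above and 0 held the 91-base exon. The fourth ended before this exon. In the pools, sperm had 1 *H2afy* transcript and the 8-cell stage 1, both with the 100-base exon, and blastocysts had 4, of which 3 carried it. The short-read values cannot show a form that the merged annotation does not hold. The form without the 3 bases AAG was present in the 8-cell and blastocyst pools and absent from the sperm pool. It took 66.8% and 66.6% of the *H2afy* TPM in 8-cell embryos and 54.2% and 53.9% in blastocysts. Its share was 68.9% and 55.6% in sperm, 84.3% and 71.9% in 4-cell embryos and 32.1% to 56.2% in the oocyte, 1-cell and 2-cell libraries, so that the 8-cell and blastocyst shares did not stand above the other stages. It rose by 3.33 from 4-cell to 8-cell (SE 0.67, adjusted p = 0.0176, over all 20250 transcripts, of which 3.13% passed). The split among the other forms differed between replicates, such as 43.6% against 1.46% in blastocysts for the transcript that began farthest upstream.

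The H3.3 genes encode the same protein and behaved unlike each other. *H3f3b* (chr11:116021912-116027962) was at 10627 and 7989 TPM in oocytes and 16014 and 4094 in 1-cell embryos. It was at 697 and 1721 TPM in 2-cell embryos, 3793 and 3886 in 4-cell embryos, 2189 and 1791 in 8-cell embryos, 2977 and 8312 in blastocysts and 454 and 2270 in sperm. The 2-cell libraries lay below all oocyte and other embryo libraries. *H3f3b* fell by 2.88 from 1-cell to 2-cell (SE 0.96, adjusted p = 0.0337). This call was lost in 6 of the 12 fits with 1 library left out, among them those without 1-cell replicate 1 (−1.90, adjusted p = 0.251) and without 2-cell replicate 1 (−2.23, adjusted p = 0.106), and under 5 other settings, namely no filter on low values (adjusted p = 0.114), quantile normalization (0.122), a fit limited to these 2 stages (0.191), a replicate block (0.0509) and the spread weighted by stage (0.154). The change back of 1.81 from 2-cell to 4-cell did not pass (SE 0.96, adjusted p = 0.255).

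*H3f3a* (chr1:180800832-180813943) was lower than *H3f3b* in all 14 libraries. Its TPM was 185 and 628 in sperm, 118 and 165 in oocytes, 379 and 277 in 1-cell embryos, 483 and 292 in 2-cell embryos and 1195 and 792 in 4-cell embryos. It was 914 and 1025 in 8-cell embryos and 376 and 260 in blastocysts. The 4-cell and 8-cell libraries were the highest, and no change passed in any comparison. As a share of the summed TPM, *H3f3a* was 1.10% and 2.02% in oocytes, 2.31% and 6.33% in 1-cell embryos, 40.9% and 14.5% in 2-cell embryos and 23.9% and 16.9% in 4-cell embryos. It was 29.5% and 36.4% in 8-cell embryos and 11.2% and 3.03% in blastocysts. The oocyte and 1-cell shares lay below all shares from the 2-cell to the 8-cell stage, and the difference in share was not tested. vM21 annotates 41 other genes at least 90% identical to the *H3f3a* mRNA over 150 bases or more and 4 to that of *H3f3b*. None of these copies has a merged transcript, and no TPM is listed for them.

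**Figure D4:**
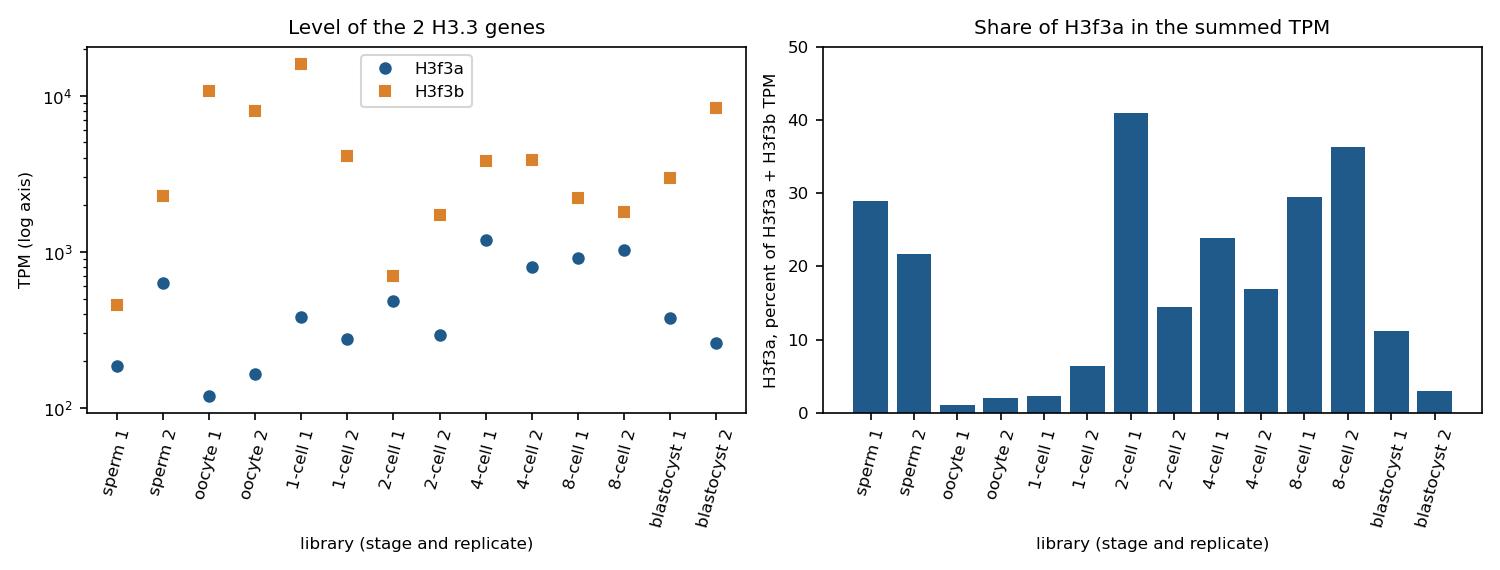
TPM of *H3f3a* and *H3f3b* on a log axis (left) and *H3f3a* as a percent of their summed TPM (right), in each short-read library. The share is at most 6.33% in oocytes and 1-cell embryos and at least 14.5% from the 2-cell to the 8-cell stage.

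The genes also differed in their 3′ ends. The pools held 43 *H3f3b* transcripts, from 4 at the 2-cell and 8-cell stages to 8 in oocytes and 4-cell embryos. Their ends, joined within 30 bases, fell into 14 positions spread over 1382 bases, of which 6 were seen in 3 or more pools. The *H3f3a* transcripts ended at 4 positions, 2 of them seen in 3 or more pools. One *H3f3b* position, 866 to 869 bases short of the farthest end, was present in sperm and in all pools from the 2-cell stage on, and in neither the oocyte nor the 1-cell pool. This position was singled out after the ends were seen. Nearby ends lay at 785 and 916 bases in the oocyte pool and at 819 in the 1-cell pool, kept apart from it by the joining within 30 bases. With 1 pool per stage the difference between pools has no replicate check. Priming of oligo-dT inside a transcript can also give an end, and its part was not tested. The merged annotation holds 3 *H3f3b* transcripts, of which 1 took from 95.0% to 97.6% of the TPM, so that the merged values do not keep these ends apart. Over the transcripts of the own stage, forms ending more than 1000 bases short took 75.5% and 52.6% of the *H3f3b* TPM in the 2-cell replicates and 48.2% and 59.6% in the 8-cell replicates. These 4 shares lay above those of all other libraries, which were 40.2% and 19.4% in sperm, 39.1% and 0% in oocytes, 40.2% and 18.4% in 1-cell embryos, 0.162% and 19.7% in 4-cell embryos and 0% and 23.8% in blastocysts. Each stage was quantified over its own set of transcripts, and the 2-cell and 8-cell sets were the smallest, so the difference was not tested.

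**Figure D5:**
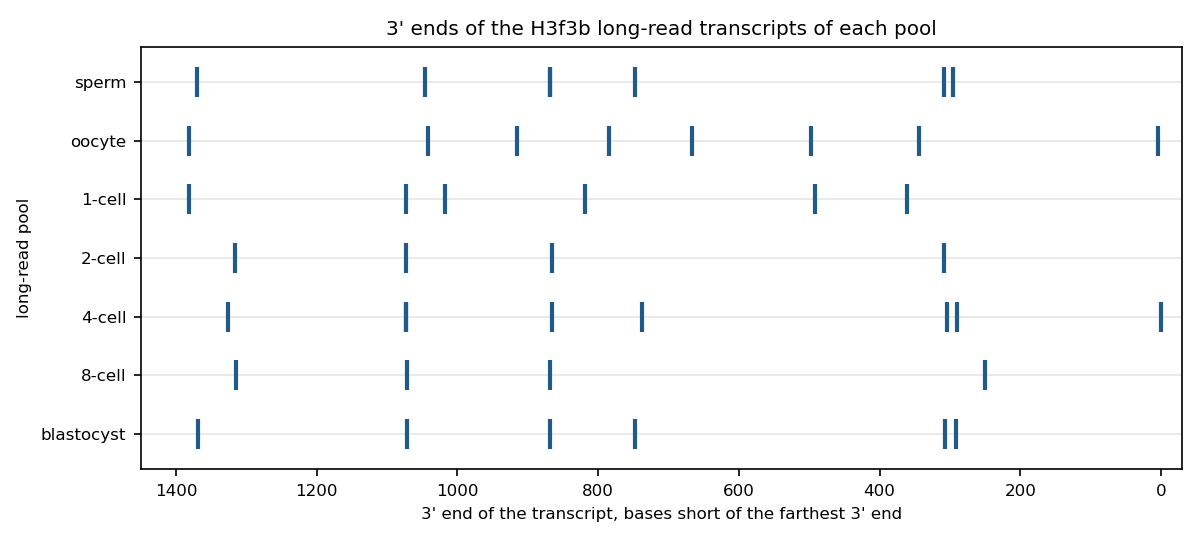
3′ ends of the *H3f3b* long-read transcripts in each pool (rows), as bases short of the farthest 3′ end (0, right). Each tick is 1 transcript. A tick at 866 to 869 bases is present in sperm and from the 2-cell stage to the blastocyst and missing in oocytes and at the 1-cell stage.

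*Npm2* encodes the egg nucleoplasmin (chr14:70647302-70659244). It was at 55.9 and 16.6 TPM in oocytes and highest at the 1-cell stage, with 148 and 106. It stood at 16.5 and 69.7 TPM in 2-cell embryos, 33.9 and 42.7 in 4-cell embryos, 7.23 and 4.81 in 8-cell embryos, 1.84 and 1.07 in blastocysts and 2.95 and 0.994 in sperm. The 1-cell libraries lay above all others, while oocyte, 2-cell and 4-cell libraries overlapped. The change of 2.00 from oocyte to 1-cell (SE 0.80, adjusted p = 0.423) and that of −1.84 from 1-cell to 2-cell (SE 0.80, adjusted p = 0.0938) did not pass. The latter was −2.85 (adjusted p = 0.013) without 2-cell replicate 2 and −0.84 (adjusted p = 0.445) without 2-cell replicate 1, and passed after quantile normalization (−2.32, adjusted p = 0.0299). The step of −2.50 from 4-cell to 8-cell had an adjusted p of 0.136 (SE 0.80), and 3.63e-05 with the spread weighted by stage, under which 39.2% of all genes passed. From oocyte to blastocyst *Npm2* fell by 3.71 (SE 0.80, adjusted p = 0.00146). The long reads held 6 *Npm2* transcripts in oocytes, 3 in 1-cell and 1 in 2-cell embryos, and 0 elsewhere.

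*Asf1a*, the H3-H4 chaperone that serves HIRA (chr10:53596757-53609225), was a gene of the oocyte and the 1-cell embryo in level, with 5829 and 1775 TPM and then 1197 and 3911. It was at 784 and 99.4 TPM in 2-cell embryos, 139 and 56.2 in 4-cell embryos, 163 and 168 in 8-cell embryos, 44.5 and 190 in blastocysts and 245 and 55.5 in sperm. Oocyte and 1-cell libraries lay above all others, and all later neighbours in the order of levels overlapped. The change of −2.95 from 1-cell to 2-cell fell short of the threshold (SE 1.09, adjusted p = 0.0511). It was −4.43 (adjusted p = 0.00623) without 2-cell replicate 1 and −1.46 (adjusted p = 0.323) without 2-cell replicate 2, and passed with a pseudocount of 0.1 (adjusted p = 0.045) or a filter at 5 TPM (adjusted p = 0.0461). From oocyte to blastocyst *Asf1a* fell by 5.11 (SE 1.09, adjusted p = 0.00132). Over the long-read transcripts of the own stage, all but 1 of which ended 986 bases or more before the end of the merged one, the mean *Asf1a* level in oocytes was 7976 TPM in place of 3802 TPM over the merged transcript.

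*Hira* (chr16:18877037-18970309) encodes the H3.3 chaperone itself. It was at 0.229 and 0.244 TPM in oocytes, 0.168 and 0.226 in 1-cell embryos and 0.595 and 0.487 in sperm. It was then at 9.31 and 14.1 TPM in 2-cell embryos, 29.1 and 28.8 in 4-cell embryos, 8.38 and 6.73 in 8-cell embryos and 5.53 and 1.67 in blastocysts. The 4-cell stage was the highest. No stage overlapped the next in the order of levels, but sperm, oocyte and 1-cell values were all under 1 TPM, where the order carries little weight. From 4-cell to 8-cell 70.3% of all genes tested showed no overlap. *Hira* rose by 3.38 from 1-cell to 2-cell (SE 0.62, adjusted p = 0.00118). The 1-cell values lay below the 1 added to each TPM, so the size of this rise depends on that constant. *Hira* passed the filter on low values only through the stages from 2-cell on, so the call is no separate support. The change of −1.82 from 4-cell to 8-cell did not pass (SE 0.62, adjusted p = 0.164). It had an adjusted p of 0.000113 with the spread weighted by stage, under which 39.2% of all genes passed. From oocyte to blastocyst it rose by 1.75 (SE 0.62, adjusted p = 0.0271), a call lost without blastocyst replicate 1 (1.11, adjusted p = 0.183), oocyte replicate 1 (1.75, adjusted p = 0.0937) or oocyte replicate 2 (1.76, adjusted p = 0.0877), and after quantile normalization (0.82, adjusted p = 0.169). All of these values rest on 1 merged transcript of 11 exons and 1739 bases (chr16:18896518-18928011), which covers the third to the thirteenth of 25 annotated exons and was read in the 8-cell pool only. Reads on the other exons were not counted for *Hira*, and the transcript also overlaps the annotated gene *Gm28539* on the same strand. *Asf1a* was highest in oocytes and 1-cell embryos. This *Hira* fragment was lowest at these stages, but below the filter of 1 TPM, so the level of the whole *Hira* message there is not known.

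Over the whole span from oocyte to blastocyst, 6 of the 10 genes passed, against 53.4% of all genes. *H2afz*, *H2afy* and *Hira* rose, and *H1foo*, *Npm2* and *Asf1a* fell, by 11.87 for *H1foo* (SE 1.16, adjusted p = 5.47e-06). *Hira* passed the filter on low values only through the stages from 2-cell on, so its call is no separate support for a rise. The median log2 change of the 10 genes was 0.13, beside 0.82 over all genes. This comparison shares its libraries with the steps above and is not independent of them.

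From sperm to oocyte 4 of the 10 genes passed, against 53.6% of the 10735 genes tested with sperm included, and all 4 were higher in oocytes, as were 17.4% of all genes. The differences, oocyte minus sperm, were 12.27 for *H1foo* (SE 1.12, adjusted p = 4.83e-07), 4.77 for *Asf1a* (SE 1.15, adjusted p = 0.00228), 3.50 for *Npm2* (SE 0.82, adjusted p = 0.002) and 3.18 for *H3f3b* (SE 1.14, adjusted p = 0.0262). The last was lost without sperm replicate 1 (2.02, adjusted p = 0.19), oocyte replicate 1 (2.97, adjusted p = 0.113) or oocyte replicate 2 (3.39, adjusted p = 0.0738), after quantile normalization (2.14, adjusted p = 0.0735), in the fit limited to these 2 stages (adjusted p = 0.117) and with the spread weighted by stage (adjusted p = 0.1). *H2afz* levels lay within each other, with a difference of −0.07 (SE 0.88). The blood cell and epididymal markers given above were present in both sperm libraries, and their part in the sperm values was not tested.

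Other genes of histone variants and chaperones were described from a list of 55, of which 44 were tested from oocyte to blastocyst. From 1-cell to 2-cell 15 of the 44 passed, 11 higher and 4 lower, where 32.3% of all genes passed, 26.1% higher and 6.2% lower, with a median change of 0.51 beside 0.72 over all genes. By role, 2 of 3 tested H2A and H2B variants rose and 1 fell, 5 of 19 H2A-H2B chaperones and exchangers rose and 1 fell, and 4 of 19 H3-H4 chaperones rose and 2 fell. The largest rises were those of *Ruvbl1*, an ATPase of the complexes that exchange H2A.Z, and of *Set*, a histone chaperone. *Ruvbl1* went from 8.12 and 3.11 to 151 and 180 TPM (4.76, SE 0.67, adjusted p = 0.000256), with no overlap. *Set* went from 10.1 and 3.53 to 84.1 and 314 TPM (4.53, SE 0.88, adjusted p = 0.00177). The largest falls were those of *Rbbp7*, an H4-binding subunit of several chromatin complexes, and of the H2A variant *Hist1h2aa*. *Rbbp7* went from 4112 and 2035 to 72.3 and 259 TPM (−4.39, SE 0.84, adjusted p = 0.00152). *Hist1h2aa* went from 107 and 19.8 to 0.905 and 2.97 TPM (−4.11, SE 0.82, adjusted p = 0.00207). In the other steps between consecutive stages 0 of the 44 passed.

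From oocyte to blastocyst 20 of the 44 listed genes passed, 14 higher and 6 lower, where 53.4% of all genes passed, 35.4% higher and 18% lower. *Ruvbl2*, the partner of *Ruvbl1*, went from 1.71 and 3.64 to 388 and 337 TPM (6.68, SE 0.85, adjusted p = 2.84e-05), and *Set* rose by 6.06. *Hist1h2aa* fell by 5.07, and *Asf1b*, the paralogue of *Asf1a*, fell by 4.93 (SE 0.88, adjusted p = 0.000369). *Asf1b* followed the order of *Asf1a* in the early stages, with 779 and 1580 TPM in oocytes, 901 and 413 in 1-cell embryos and 52.4 and 215 in 2-cell embryos. From sperm to oocyte 21 of 47 passed, 14 higher and 7 lower in oocytes, where 53.6% of all genes passed, 17.4% higher and 36.2% lower. *Rbbp7* and *Asf1b* had the largest differences towards oocytes, 8.13 and 7.49. The testis linker histone *H1fnt* was at 62.0 and 36.2 TPM in sperm and listed at 0 in both oocyte libraries. *Hist1h1c*, a replication-coupled linker histone, was at 129 and 59.3 TPM in sperm and 3.07 and 2.56 in oocytes. The paper names limits of its long-read strategy for short transcripts and for those without poly(A). The short reads came from the same cDNA, and the part of this in the histone values was not tested.

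Among all 10735 genes, the profiles most like 4 of the 10 genes were sought by the Pearson r of log2(TPM + 1) over the 14 libraries, which include replicates of a stage and are not independent. They are a description without a test. *Pabpn1l* (r = 0.99), *D6Ertd527e* (0.986) and *E330021D16Rik* (0.985) were closest to *H1foo*. *2210409E12Rik* (0.979), *Eva1a* (0.978) and *Cpn1* (0.977) were closest to *H2afz*, and *Ptprk* (0.939), *Gm13256* (0.931) and *Nek6* (0.93) to *H2afy*. For *Npm2* they were *Mbd3l2* (0.968), *Elmod2* (0.966) and *Cphx1* (0.966).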

How the data were processed

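Short-read libraries (14, 2 per stage) and long-read pools (7) of amplified, oligo-dT primed cDNA were analysed, grouped by the stage in their titles. For the 8-cell libraries the titles and the names of the deposited tables number the replicates in opposite ways, and the titles were followed. The authors collapsed and filtered the long reads on mm10, merged the stages, and quantified the short reads with salmon. They deposited exon coordinates and TPM over the merged transcripts and over those of the own stage. TPM keeps no read depth, so no count test or interval was possible.

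Transcripts were assigned to the gene of GENCODE vM21 with the most overlapping exon bases on the same strand, and TPM was summed by gene. Genes reaching a TPM of 1 in 2 or more libraries were tested with limma 3.58.1 in R 4.3.3 (lmFit, contrasts.fit, eBayes with a trend) on log2(TPM + 1), which understates changes of low genes. The 12 libraries from oocyte to blastocyst shared 1 estimate of the spread, and sperm was compared with oocyte in a second fit of all 14. An adjusted p under 0.05 (Benjamini-Hochberg over all genes) was called. Copies were sought with BLAST+ 2.17.0 among vM21 transcripts. Python 3.11.15 and pandas 2.3.3 were used.

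All 10 genes are named. Of the wider list, the 2 called genes that rose most and the 2 that fell most in each comparison are named. Levels of *Asf1b* at other stages were added after its values were seen. The members and lists were chosen with earlier results of these data known. Profiles were compared for the 4 members with the widest range of stage means. Alternatives were another pseudocount, other filters, quantile normalization, a fit limited to the 2 stages compared, a replicate block, a spread weighted by stage, transcripts on more than 1 gene left out, TPM over the own stage, and each library left out. Adding *Gm8203* to *H2afz* was chosen after seeing the data.

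On simulated data for the 1-cell to 2-cell comparison (10000 genes, 200 changed by 4 on the log2 scale), 188 were recovered beside 10 false calls with equal spread. With the spread of each stage 149 were recovered beside 67 false calls. For a change of 2 with equal spread, 10 were recovered beside 1 false call. For a change of 2 with the spread of each stage, 19 were recovered beside 21 false calls. Whether these counts hold for genes at low levels, or with a spread of their own, was not tested.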

Additional observations from a re-analysis of the deposited data

How the results depend on the processing

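No member change with an unadjusted p under 0.05 turned direction under any alternative run. With all libraries kept, 5 smaller changes turned under quantile normalization (*H3f3b* from oocyte to 1-cell, *H2afy* from 1-cell to 2-cell, *Npm2* from 2-cell to 4-cell, *H2afz* and *Hira* from sperm to oocyte) and 1 with a pseudocount of 0.1 (*H1foo* from 8-cell to blastocyst), and none of these passed. With the spread weighted by stage, 2 members were called from 1-cell to 2-cell (*H1foo* and *Hira*), against 15.3% of all genes. At the 8-cell step 4 were called (*H1foo*, *H2afy*, *Hira* and *Npm2*), against 39.2% of all genes. With these weights the wider list had 6 and 14 calls at these steps. It had 13 from sperm to oocyte, where 41.4% of all genes passed. In the fit limited to the 2 stages, 6 members were called from 4-cell to 8-cell (*H2afz* and *H3f3b* besides). In that fit 8 and 13 genes of the wider list were called at the steps from 1-cell and from 4-cell, against 22.3% and 37.9% of all genes. Quantile normalization gave 2 calls of the wider list from 2-cell to 4-cell and 1 at the 8-cell step, against 10.8% and 2.61% of all genes.

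With 1 library left out, members called ranged from 0 to 1 from 2-cell to 4-cell (1, *H1foo*, without 2-cell replicate 1) and from 0 to 3 from 4-cell to 8-cell. The latter was 0 without either replicate of these stages and 3 (*H2afy*, *Hira* and *Npm2*) without either 2-cell replicate. Calls of the wider list ranged from 8 (without 1-cell replicate 2) to 15 at the 2-cell step, from 0 to 7 (without 2-cell replicate 2) at the 4-cell step and from 0 to 1 (without either 2-cell replicate) at the 8-cell step. Where 1 library of a stage remained, it was assumed to vary like the other stages. Members called ranged from 3 to 6 from 1-cell to 2-cell, from 5 to 7 from oocyte to blastocyst and from 3 to 5 from sperm to oocyte.

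With a replicate block, 3 members were called from 1-cell to 2-cell (*H3f3b* at an adjusted p of 0.0509 in limma), and 0, 0, 1, 0, 6 and 4 in the other comparisons, in the order of the stages, then oocyte to blastocyst and sperm to oocyte. Deviations of same-numbered libraries correlated at −0.547 to 0.479, not over 0.1 in every pair, so the numbers were not taken to pair the libraries.

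Over all genes with all libraries kept, the calls changed by more than 1.5 times as follows. From oocyte to 1-cell, 38 calls became 23 with a pseudocount of 0.1, 1 without a filter, 9 after quantile normalization, 98 in the fit limited to the 2 stages, 1 with the block and 86 with weights. From 1-cell to 2-cell, 3227 became 2080 with 2 stages and 1531 with weights. From 2-cell to 4-cell, 340 became 85 with the pseudocount, 1076 after quantile normalization, 0 with 2 stages, 87 with the block and 1 with weights. From 4-cell to 8-cell, 167 became 261 after quantile normalization, 3482 with 2 stages, 89 with the block and 3921 with weights, and from 8-cell to blastocyst 300 became 555 with weights. Quantile normalization took the share of higher genes among the calls from 86.8% to 55.6% (oocyte to 1-cell), from 46.5% to 56.7% (2-cell to 4-cell), from 46.1% to 69.3% (4-cell to 8-cell), from 66.3% to 50.2% (oocyte to blastocyst) and from 32.4% to 50.2% (sperm to oocyte). With 1 library left out, calls over all genes ranged from 0 (without oocyte replicate 2 or either 1-cell replicate) to 224 (without 2-cell replicate 1) from oocyte to 1-cell and from 1677 (without 1-cell replicate 2) to 3809 from 1-cell to 2-cell. They ranged from 0 (without either 4-cell replicate) to 1714 (without 2-cell replicate 2) from 2-cell to 4-cell and from 0 (without any 4-cell or 8-cell library) to 886 (without 2-cell replicate 2) from 4-cell to 8-cell. From 8-cell to blastocyst they were 24 and 82 without 8-cell replicate 1 and 2, 114 without blastocyst replicate 2 and 801 and 790 without 2-cell replicate 1 and 2. 1-cell replicate 1 left out gave 2104 from 1-cell to 2-cell. Quantile normalization moved the median change of all genes from 0.72 to −0.12 from 1-cell to 2-cell. The cause of these differences was not tested.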
